A study of Mus musculus with 9 samples.

Results

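The data follow 5 membrane carriers of sulfate, citrate and dicarboxylates through kidney injury: Slc13a1, Slc13a2, Slc13a3, Slc13a4 and Slc26a1. They were chosen by gene symbol, as 5 of the 55385 genes in the count table, and all 5 were among the 15519 genes with enough reads to be tested. RNA came from tdTomato-positive kidney cells sorted from male mice aged 9 to 12 weeks, in 9 libraries of 3 groups with 3 biological replicates each. The uninjured group carried the alleles Slc34a1IRES-CreERT2/+:R26RtdT/+ and received tamoxifen without ischemia, so its red cells descended from cells in which the phosphate carrier gene Slc34a1 drove Cre. Both other groups carried Sox9IRES-CreERT2/+:R26RtdT/+ and had ischemia and reperfusion of both kidneys. In the Sox9 48 h group tamoxifen accompanied the injury and cells were taken 48 h later. For the Sox9 day 14 group it was given on days 10 and 12, and cells were taken on day 14. All mice shared the tdTomato reporter and tamoxifen. The Cre allele, the injury and the tamoxifen schedule changed together between the uninjured and the Sox9 groups and cannot be told apart. Nothing in the labels says whether uninjured mice had sham surgery, or whether a replicate was 1 mouse or a pool.

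The proximal tubule reclaims filtered sulfate by moving it across the luminal and then the basolateral membrane. Filtered citrate is taken up across the luminal membrane. On the luminal brush border, Slc13a1 takes up sulfate with sodium, and Slc13a2 takes up citrate and succinate with sodium. On the basolateral side, Slc26a1 lets sulfate out in exchange for other anions such as oxalate, and Slc13a3 brings dicarboxylates in from the blood, including the alpha-ketoglutarate that organic anion transporters trade for drugs and metabolites. Slc13a4 is a sodium-coupled sulfate carrier best known from placenta and brain coverings. The question addressed is how the RNA of each carrier stood in cells labelled early through Sox9, and in cells labelled late, beside uninjured proximal tubule cells.

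Depth ran from 31585507 to 51631204 counts in uninjured samples, from 8036054 to 23794029 in the early Sox9 samples and from 19239354 to 30414758 in the late ones, and 3 counts, the limit that a count of 0 allows, corresponded to 0.0651 to 0.431 CPM. CPM here are counts scaled to a common library size with TMM factors, which equalise the bulk of genes between libraries. Sox9 itself was at 0.274 ± 0.318 CPM (SD, n = 3) in uninjured cells, 14.9 ± 7.28 at 48 h and 33.2 ± 5.07 at day 14. The sorted populations differed in their markers. Summed CPM of 19 proximal tubule markers ran from 35637 to 43826 in uninjured libraries, from 13883 to 22089 at 48 h and from 4669 to 7858 at day 14. The sum of 7 thick ascending limb markers ran from 386 to 489, from 850 to 1092 and from 3059 to 5647, and that of 7 distal and connecting tubule markers from 194 to 256, from 545 to 791 and from 3311 to 4564. At 48 h the markers of neutrophils, white blood cells that enter injured kidney, summed to 113 to 342 CPM, against 2.80 to 8.003 in uninjured libraries and 3.40 to 5.62 at day 14. Mitochondrially encoded genes took 25.1% to 29.2% of counts in uninjured libraries, 32.7% to 39.2% at 48 h and 15.2% to 25.2% at day 14. The Sox9 libraries of day 14 held markers of several tubule segments, and bulk RNA does not tell whether single cells held them together. No gene of either distal list was at 0 across all 9 libraries. Reads at day 14 alone could meet this, so it does not show whether a gene was present in the other groups. In a bulk sample, fewer cells of a type and less RNA per cell cannot be told apart. The part of this shift in the values below was not tested. Carriers are also given below as a percent of proximal tubule markers, without a test. The sum of those markers itself changed between groups. One 48 h library stood apart: 48 h replicate 1 had Slc34a1 at 4404 CPM against 1147 and 1895 in replicates 2 and 3, a sum of 9 markers of the S3 segment of 2979 against 593 and 721, and a sum of 7 endothelial markers of 708 against 84.2 and 137.

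The carriers are listed on the mouse build GRCm38, all transcribed from the minus strand. Slc13a1 spans chr6:24088283-24168092, Slc13a4 chr6:35267957-35308131, Slc13a2 chr11:78397087-78422217, Slc13a3 chr2:165405028-165473230 and Slc26a1 chr5:108669878-108675569, and each is protein coding. Slc26a1 sits inside Idua, the gene of a lysosomal enzyme on the opposite strand, and 141 bases of its exons (3.48%) overlap Idua exons. The antisense gene Slc13a2os overlaps 632 bases (26.2%) of the Slc13a2 exons. The kit keeps strand, but for the counting the strand setting was not given in the sources. Idua was at 3.98 to 6.11 CPM in uninjured libraries, 6.96 to 14.1 at 48 h and 10.7 to 12.7 at day 14. In 48 h replicate 2 it was at 14.1 CPM beside 28.9 of Slc26a1, so there the neighbour was not small. Slc13a2os was at 1.12 to 2.67 CPM in uninjured libraries, 0.281 to 1.01 at 48 h and 0.707 to 2.81 at day 14. Adding their reads to Slc26a1 and Slc13a2, an alternative chosen after seeing the data, changed no call.

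Of the members, 4 matched a RefSeq start site (GRCm38.p6). The stretch before it is shown for the 3 genes that fell together at day 14 and were not called at 48 h. It is also shown for Slc26a1, whose fall was already called at 48 h. Windows hold up to 250 bases before the start, without annotated exons, 5′ to 3′ on the gene's strand. Capitals mark matches on either strand to the GC box GGGCGG, the E-box CACGTG, the TATA box TATAAA or CCAAT. The core CAAAGTCCA of the HNF4 repeat and the HNF1 half-site GTTAAT were searched in the same way. The stretches are chr11:78422235-78422484 for Slc13a2, chr2:165473231-165473447 for Slc13a3, chr6:35308132-35308376 for Slc13a4 and chr5:108674797-108675046 for an internal start site of Slc26a1.
Slc13a2: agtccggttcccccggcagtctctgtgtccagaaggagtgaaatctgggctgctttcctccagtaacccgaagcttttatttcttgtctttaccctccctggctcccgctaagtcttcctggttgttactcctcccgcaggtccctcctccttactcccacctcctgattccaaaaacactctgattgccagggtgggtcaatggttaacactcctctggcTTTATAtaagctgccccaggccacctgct
Slc13a3: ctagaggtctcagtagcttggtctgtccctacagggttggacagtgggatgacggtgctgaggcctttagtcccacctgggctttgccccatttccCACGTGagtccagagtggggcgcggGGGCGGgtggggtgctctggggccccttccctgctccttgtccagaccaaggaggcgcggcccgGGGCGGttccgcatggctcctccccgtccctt
Slc13a4: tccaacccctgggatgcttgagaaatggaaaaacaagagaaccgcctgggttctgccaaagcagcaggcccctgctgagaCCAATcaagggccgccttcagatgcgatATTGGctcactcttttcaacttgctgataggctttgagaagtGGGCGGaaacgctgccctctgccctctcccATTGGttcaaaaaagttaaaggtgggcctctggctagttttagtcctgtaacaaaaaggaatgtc
Slc26a1: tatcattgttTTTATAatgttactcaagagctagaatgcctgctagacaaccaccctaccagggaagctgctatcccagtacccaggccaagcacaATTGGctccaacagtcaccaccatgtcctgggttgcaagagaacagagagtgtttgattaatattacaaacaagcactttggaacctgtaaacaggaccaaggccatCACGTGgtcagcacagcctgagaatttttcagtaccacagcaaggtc

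These 4 stretches differed in composition, taken over the full 250 bases, of which 217 are printed for Slc13a3 and 245 for Slc13a4. The Slc13a3 window had 67.6% G and C and held 2 GC boxes, 129 and 65 bases before the start, and an E-box at 154. Slc13a4, at 50.4%, had a GC box at 100 and 3 CCAAT matches at 170, 142 and 70. For Slc13a2, at 53.6%, the one match was a TATA box at 29. In the Slc26a1 window, at 46.0%, there was a TATA box at 240, a CCAAT at 154 and an E-box at 47. Slc26a1 has another listed start site further upstream, not printed. The 250 bases before that site had 46.8% G and C and no match to any motif searched. Among 32851 windows of 250 bases before RefSeq start sites the median was 52.4% G and C, and 32.7% held a GC box, 33.8% a CCAAT, 12.4% a TATA box and 6.02% an E-box. The HNF4 core matched 0.384% of all windows and the HNF1 half-site 6.43%, and neither was found in the 4 stretches. No motif was in all 3 genes that fell together. Matches are descriptions of letters, not of bound sites.

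**Figure D1:**
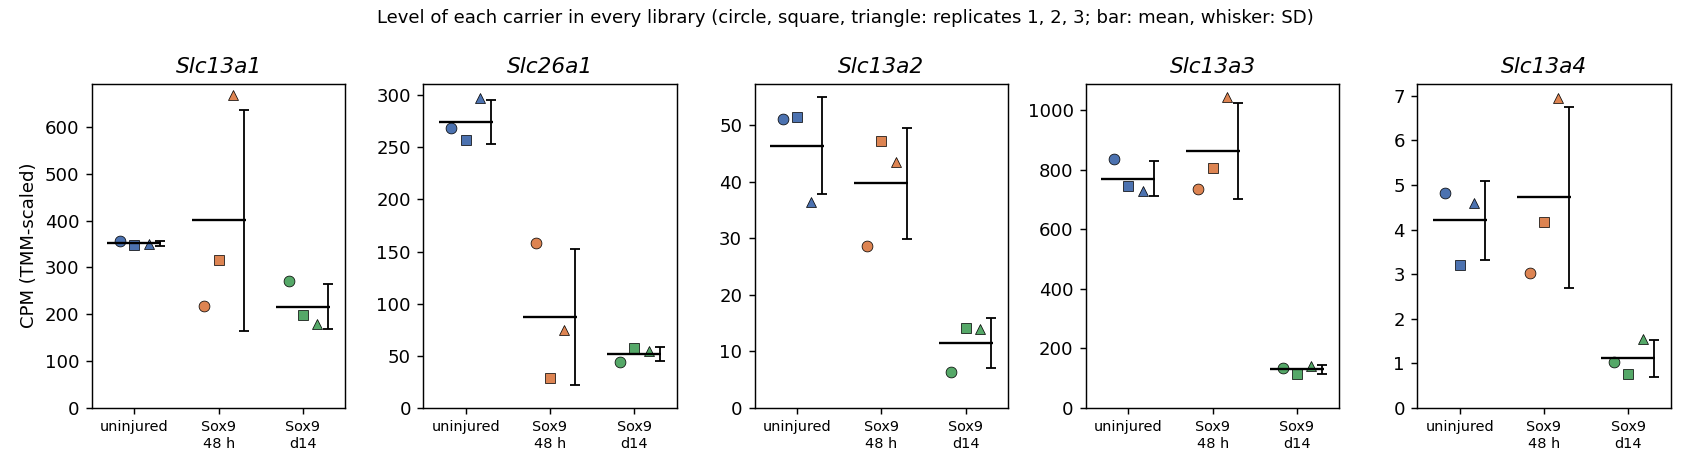
TMM-scaled CPM (vertical axis, a scale of its own for each gene) of the 5 carriers in each library, by group; circles, squares and triangles are replicates 1, 2 and 3, bars are means and whiskers SD. Slc26a1 is lower in both Sox9 groups, Slc13a2, Slc13a3 and Slc13a4 have their lowest values at day 14, and the Slc13a1 points of 48 h lie between 218 and 668 CPM.

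The luminal sulfate carrier Slc13a1 kept a similar level in uninjured cells and spread widely after injury. Uninjured replicates 1 to 3 had 357, 347 and 351 CPM, the 48 h replicates 218, 316 and 668, and the day 14 replicates 271, 198 and 179. The 48 h libraries lay on both sides of the tight uninjured range, while all 3 day 14 libraries lay below it. The log2 change at 48 h was 0.19 ± 0.35 (SE, edgeR adjusted p = 0.734, 95% interval -0.60 to 0.97). At day 14 it was -0.70 ± 0.35 against uninjured (edgeR adjusted p = 0.131) and -0.89 ± 0.35 against 48 h (edgeR adjusted p = 0.0808), and none of these was called. Without 48 h replicate 1 both day 14 differences passed, at -0.70 (edgeR adjusted p = 0.0443) and -1.19 (edgeR adjusted p = 0.0118). The first of them also passed without 48 h replicate 3 (edgeR adjusted p = 0.00862), where the change at 48 h became -0.40. It did not pass without any day 14 replicate (edgeR adjusted p = 0.127 to 0.305). With library totals in place of TMM the day 14 changes shrank to -0.11 against uninjured (edgeR adjusted p = 0.834) and -0.32 against 48 h (edgeR adjusted p = 0.556).

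The basolateral sulfate exchanger Slc26a1 was lower in every Sox9 library. Its uninjured levels were 268, 257 and 297 CPM, those at 48 h 158, 28.9 and 75.1, and those at day 14 44.3, 57.2 and 54.5. Neither Sox9 group overlapped the uninjured group, and the 48 h values enclosed those of day 14. Slc26a1 fell by 1.64 ± 0.50 on the log2 scale at 48 h (3.12-fold, edgeR adjusted p = 0.0401) and dropped by 2.40 ± 0.51 at day 14 (5.27-fold, edgeR adjusted p = 0.00527). Day 14 differed from 48 h by -0.76 ± 0.49 (edgeR adjusted p = 0.275, 95% interval -1.89 to 0.37). The call at 48 h was close to the threshold. It was lost when replicates were blocked by number (log2 change -1.80, edgeR adjusted p = 0.0519), with no filter on low counts, with only the groups compared in the fit, and when a library was left out, for each library but 48 h replicates 1 and 2 (edgeR adjusted p = 0.00109 to 0.125 over the 9 fits). Of the 48 h libraries, replicate 1 had the most Slc26a1. It also had the highest marker sums of the proximal tubule and of each of its segments S1, S2 and S3. Without 48 h replicate 1, the change at 48 h was -2.38 on the log2 scale (edgeR adjusted p = 0.00109). The difference of day 14 from 48 h was then -0.02 (edgeR adjusted p = 0.967). Idua, the host gene, rose from 5.09 ± 1.07 CPM to 9.91 ± 3.72 and 11.4 ± 1.14 (SD, n = 3), with edgeR adjusted p of 0.0277 and 0.00497.

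The basolateral dicarboxylate carrier Slc13a3 changed late. Uninjured replicates had 836, 744 and 729 CPM, 48 h replicates 735, 807 and 1042, and day 14 replicates 133, 113 and 141. Uninjured and 48 h values overlapped, and every day 14 value was less than every value of the other groups. At 48 h the log2 change was 0.16 ± 0.15 (edgeR adjusted p = 0.468, 95% interval -0.17 to 0.50). By day 14 Slc13a3 fell by 2.58 ± 0.16 against uninjured (5.97-fold, edgeR adjusted p = 4.08e-07) and dropped by 2.74 ± 0.16 against 48 h (6.68-fold, edgeR adjusted p = 7.09e-06).

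The luminal citrate and dicarboxylate carrier Slc13a2 had a similar course. It stood at 51.1, 51.4 and 36.4 CPM in uninjured replicates, 28.6, 47.1 and 43.4 at 48 h and 6.27, 14.2 and 13.9 at day 14. Again the first pair of groups overlapped and day 14 was below both. The log2 change was -0.23 ± 0.30 at 48 h (edgeR adjusted p = 0.617, 95% interval -0.90 to 0.44). At day 14 Slc13a2 fell by 2.01 ± 0.31 against uninjured (4.04-fold, edgeR adjusted p = 4.68e-04) and dropped by 1.79 ± 0.31 against 48 h (3.45-fold, edgeR adjusted p = 0.00226). Slc13a2os, whose exons overlap, was at 1.86 ± 0.777, 0.623 ± 0.369 and 1.56 ± 1.11 CPM in the 3 groups in the same order (SD, n = 3), and its groups of uninjured and day 14 overlapped.

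The other sulfate carrier of the family, Slc13a4, was scarce in all groups. Uninjured replicates had 222, 91 and 181 counts, the 48 h replicates 54, 29 and 151, and those of day 14 29, 19 and 57, which gave 4.82, 3.19 and 4.59 CPM, 3.03, 4.17 and 6.96 CPM, and 1.02, 0.752 and 1.55 CPM. All values exceeded the limit that a count of 0 allows in their library. The day 14 libraries were below the rest, and uninjured and 48 h overlapped. Slc13a4 changed by 0.17 ± 0.43 at 48 h (edgeR adjusted p = 0.803, 95% interval -0.77 to 1.11). It fell by 1.91 ± 0.45 at day 14 against uninjured (3.76-fold, edgeR adjusted p = 0.00453) and dropped by 2.08 ± 0.45 against 48 h (4.24-fold, edgeR adjusted p = 0.00546). The list of stroma markers, which are genes of the connective tissue around tubules, summed to 6.43 to 13.99 CPM in uninjured libraries, 2.30 to 7.84 at 48 h and 12.7 to 25.6 at day 14.

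Counted over the members, 1 of 5 was called lower at 48 h, where 11.7% of all genes tested were called lower. At day 14 against uninjured 4 of 5 were called lower (background 20.7%), and against 48 h 3 of 5 (background 16.3%). No member was called higher in any comparison, against 17.4%, 25.1% and 16.8% of all genes at 48 h, at day 14 and between them, and calls in either direction took in 29.1%, 45.8% and 33.1%. Groups did not overlap for 1, 5 and 3 members in these comparisons, against 42.2%, 63.3% and 47.3% of all genes. The median log2 change of all genes tested was 0.02, 0.06 and 0.05. That of the members was 0.16 at 48 h, -2.01 at day 14 and -1.79 between them. Comparisons share libraries, so these counts are not independent. With libraries scaled by total counts in place of TMM, the share of calls that were higher at day 14 against uninjured was 83.8% in place of 54.8%, and against 48 h 87.9% in place of 50.7%. The 7 falls of members that involve day 14 kept their call under that scaling.

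**Figure D2:**
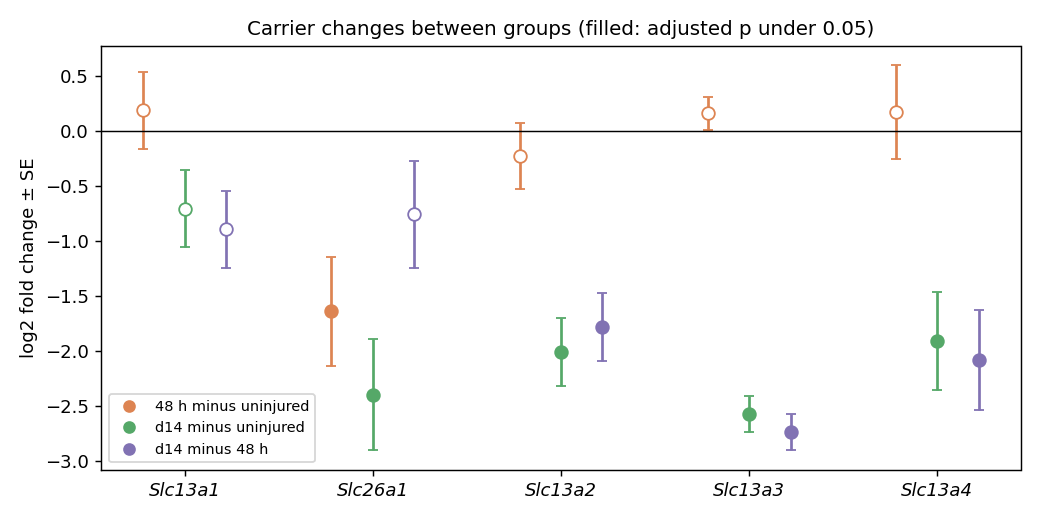
Log2 fold change with its SE (vertical axis) for each carrier in the 3 comparisons; filled points have an edgeR adjusted p under 0.05. Slc13a2, Slc13a3 and Slc13a4 lie near 0 at 48 h and between -1.79 and -2.74 in both day 14 comparisons, while Slc26a1 is at -1.64 at 48 h and -2.40 at day 14.

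Per kilobase of annotated exon, which makes levels of different genes comparable, the order of the carriers changed between groups. In uninjured cells Slc13a3 led with 148 ± 11.1 CPM per kb, followed by Slc26a1 at 67.7 ± 5.15, Slc13a1 at 45.5 ± 0.668, Slc13a2 at 19.2 ± 3.55 and Slc13a4 at 0.928 ± 0.195 (SD, n = 3). No neighbours in that order overlapped. At 48 h Slc13a3 led again with 165 ± 30.9 CPM per kb, then came Slc13a1 at 51.8 ± 30.6, Slc26a1 at 21.6 ± 16.2, Slc13a2 at 16.5 ± 4.06 and Slc13a4 at 1.04 ± 0.447. Of these, Slc13a1 and Slc26a1 overlapped, and so did Slc26a1 and Slc13a2. By day 14 Slc13a1 and Slc13a3 were side by side at 27.9 ± 6.26 and 24.7 ± 2.73 CPM per kb with overlapping ranges on this length, above Slc26a1 at 12.8 ± 1.68, Slc13a2 at 4.75 ± 1.86 and Slc13a4 at 0.245 ± 0.0898. The place of Slc13a1 rests on the length used, since its exon union of 7.73 kb exceeds its longest transcript of 3.14 kb. Over the longest transcript, Slc13a1 stood at 112 CPM per kb in uninjured cells, above Slc26a1 at 71.9. On that length the day 14 ranges of Slc13a1 (56.8 to 86.1) and Slc13a3 (32.1 to 40.01) did not overlap.

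The make-up of the carrier RNA shifted with it. Summed over the members, CPM was 1446 ± 62.1 in uninjured cells, 1394 ± 384 at 48 h and 409 ± 39.4 at day 14 (SD, n = 3). Slc13a1 gave 23.5% to 24.7% of that sum in uninjured libraries, 19.1% to 36.4% at 48 h and 45.8% to 59.5% at day 14. Slc13a3 went from 51.4% to 55.1% in uninjured libraries and 56.8% to 67.1% at 48 h to 29.2% to 36.2% at day 14, where it no longer held most of the sum. Slc26a1 gave 17.7% to 20.97%, 2.40% to 13.8% and 9.75% to 14.9%. These shares are per CPM and not per length.

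The balance between the luminal and the basolateral sulfate carrier can be read within a library, where depth and scaling cancel. Slc13a1 to Slc26a1 ratios of CPM were 1.33, 1.35 and 1.18 in uninjured replicates. At 48 h they were 1.38, 10.9 and 8.88, and at day 14 6.10, 3.46 and 3.28. Every Sox9 library was above the highest uninjured one, but 48 h replicate 1 exceeded it by a small margin only, and the Sox9 groups overlapped each other. On the log2 scale the mean ratio was 0.36 ± 0.11, 2.36 ± 1.64 and 2.04 ± 0.50 (SD, n = 3), and 3.30 at 48 h without replicate 1. For dicarboxylates the ratio was taken the other way, basolateral over luminal, and was above 1 throughout, also per kilobase of exon. Slc13a3 to Slc13a2 was 16.4, 14.5 and 20.0 in uninjured replicates, 25.7, 17.1 and 24.0 at 48 h and 21.2, 7.99 and 10.1 at day 14. All 3 groups overlapped in that ratio. Ratios were described without a test.

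**Figure D3:**
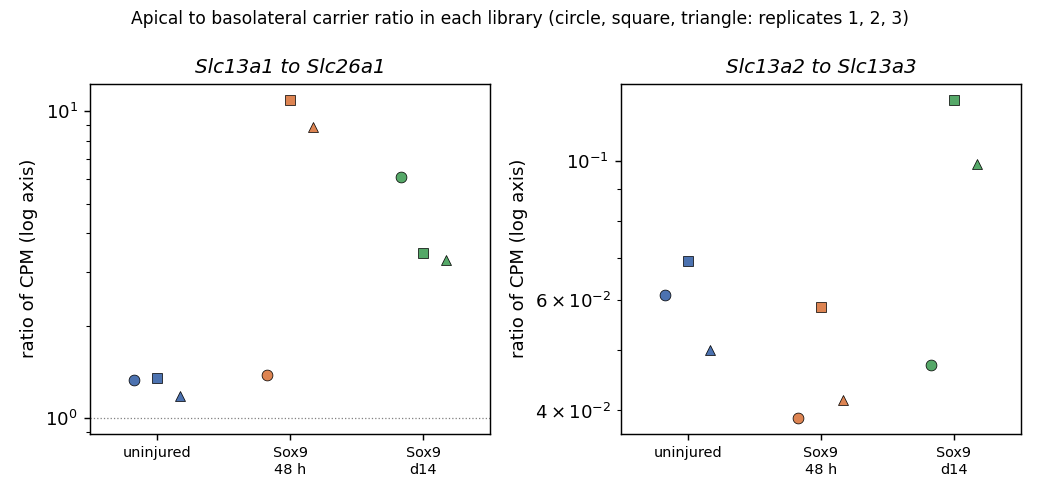
Ratio of CPM of the luminal to the basolateral carrier in each library (vertical axes, log scale) for sulfate (left) and dicarboxylates (right), by group. The sulfate ratio is 1.18 to 1.38 in the uninjured libraries and 48 h replicate 1 and 3.28 to 10.9 in the other 5 libraries, and the dicarboxylate ratio overlaps between groups.

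Set beside proximal tubule RNA, the carriers followed another order. The measure is the CPM of a member as a percent of the summed CPM of 18 proximal tubule markers, leaving out Slc34a1, by which uninjured cells were selected. The markers summed to 33746 ± 4585 CPM, 15009 ± 2864 and 5235 ± 1364 (SD, n = 3), and Kap, an androgen-regulated gene of the proximal tubule, was the most abundant of them. Slc13a1 was 0.916%, 1.11% and 1.14% of that sum in uninjured replicates, 1.23%, 2.06% and 5.57% at 48 h and 7.36%, 3.40% and 2.88% at day 14. It was above all uninjured libraries in all 6 Sox9 libraries. Slc13a3 was 2.14%, 2.37% and 2.37%, then 4.16%, 5.25% and 8.70%, then 3.61%, 1.94% and 2.27%. Its 48 h values exceeded all others, and day 14 and uninjured overlapped. For Slc13a2 the means were 0.138%, 0.277% and 0.213%, with day 14 above uninjured in every library and 48 h overlapping both. The order of day 14 and uninjured rests on the marker list, as given next. Slc13a4 had means of 0.0125%, 0.0341% and 0.0219%, with 48 h above uninjured. Slc26a1 had 0.824%, 0.570% and 1.02%, with all groups overlapping.

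Measured against Lrp2 and Cubn alone, the large endocytic receptors of the brush border, Slc13a1 was 3.09 times its uninjured share at 48 h and 2.94 times at day 14, where the full list gave 2.80 and 4.32. Slc13a3 was 3.07 times its uninjured share at 48 h and 0.793 times at day 14, beside 2.63 and 1.14 with the full list. For Slc26a1 these ratios were 0.750 and 0.893, beside 0.691 and 1.24. Slc13a2 was 2.43 and 1.12 times its uninjured share, beside 2.01 and 1.55, and on Lrp2 and Cubn its day 14 libraries (0.640%, 1.22% and 1.22%) overlapped the uninjured ones (0.921%, 1.21% and 0.614%). Slc13a4 was 3.16 and 1.27 times its share, beside 2.73 and 1.75. Day 14 values of Slc13a3 and Slc26a1 were on opposite sides of the uninjured share depending on the markers, so no direction is given for them. These percentages were described without a test.

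**Figure D4:**
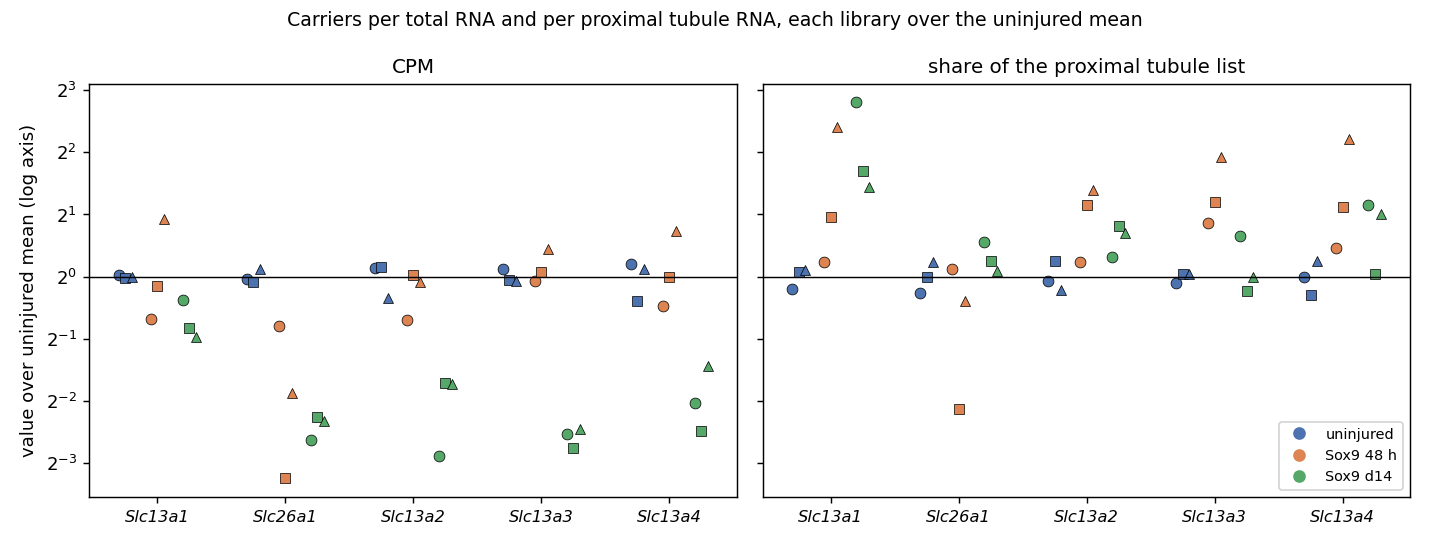
Value in each library over the uninjured mean (vertical axis, log scale) for CPM (left) and for the percent of 18 proximal tubule markers (right); circles, squares and triangles are replicates 1, 2 and 3. On the left all 5 carriers are below 1 in the day 14 libraries; on the right Slc13a1 is above 1 in all 6 Sox9 libraries and Slc26a1 lies on both sides.

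The members fell into different patterns over the 9 libraries. As a measure of likeness, log2 CPM of each gene was centred on its mean, and the root mean square difference between a pair of genes was taken. Between members it was smallest for Slc13a3 and Slc13a4, at 0.43, followed by Slc13a2 with Slc13a4 at 0.51 and with Slc13a3 at 0.53. Slc26a1 was the most distant, at 1.10 to 1.22 from every other member. Slc13a1 was 0.67 to 0.96 from the other Slc13 genes. The closest genes outside the set were, for Slc13a3, Mettl7b at 0.20, Keg1 at 0.24 and Cda at 0.30. For Slc13a2 they were Susd3 at 0.26, Guca2b at 0.28 and Adtrp at 0.28. Those of Slc26a1 were Akr1c21 at 0.17, Abhd14a at 0.18 and the organic anion transporter Slco1a6 at 0.24. Slc13a1 was closest to Dcaf12l1 at 0.24, Pla2g5 at 0.26 and Stk40 at 0.27, and Slc13a4 to Ppp1r14d at 0.32, Slc35f1 at 0.34 and Acp5 at 0.34. The neighbours were chosen for likeness, so their course is no further evidence. Keg1, a proximal tubule marker, was at 1092 ± 247 CPM, 1139 ± 164 and 177 ± 23.5, and Akr1c21 at 1451 ± 116 CPM, 486 ± 356 and 240.0 ± 33.3 (SD, n = 3).

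Genes around the carriers were described by list, beside the shares of all genes called and the medians given above. Of 19 proximal tubule markers, 13 were called lower and 1 higher at 48 h (Pck1, 0 higher under several other settings). At day 14, 18 were lower and 0 higher. Their median log2 changes were -1.36 and -2.63, where those of the carriers were 0.16 and -2.01. The part of proximal tubule content in the lists below was not tested. Some genes, such as Slc22a6, Slc22a8 and Pck1, are in both kinds of list. A list drawn around dicarboxylate exchange comes first. It is broad and also holds carriers such as Slc22a12, Slc9a3 and Slc4a4 that are not partners of Slc13a3. Slc13a3 supplies the alpha-ketoglutarate that Slc22a6 and Slc22a8 exchange for organic anions, Sucnr1 and Oxgr1 are receptors for succinate and alpha-ketoglutarate, and Pdzk1 is a scaffold of brush border carriers. Of 12 genes in this list, 7 were called lower and 1 higher at 48 h, 10 lower and 1 higher at day 14, and 8 lower and 1 higher between day 14 and 48 h. The median log2 changes were -1.17, -2.27 and -0.87. Between day 14 and 48 h 5 were lower and 2 higher with library totals in place of TMM. Slc22a6 was at 1214 ± 183, 871 ± 145 and 235 ± 67.9 CPM (SD, n = 3), with a log2 change of -0.48 ± 0.21 at 48 h (edgeR adjusted p = 0.113) and -2.37 ± 0.22 at day 14 (edgeR adjusted p = 7.25e-06). Pdzk1 stood at 1128 ± 31.4, 998 ± 201 and 248 ± 39.9 CPM, with a log2 change of -0.18 ± 0.17 at 48 h (edgeR adjusted p = 0.470) and -2.19 ± 0.17 at day 14 (edgeR adjusted p = 2.28e-06). Slc22a8 fell early, from 763 ± 45.8 to 133 ± 38.0 and 74.8 ± 16.8 CPM, by 2.52 ± 0.23 at 48 h (edgeR adjusted p = 2.51e-05). Sucnr1 fell by 1.41 ± 0.21 at 48 h (edgeR adjusted p = 6.93e-04) and dropped by 2.80 ± 0.22 at day 14 (edgeR adjusted p = 2.30e-06). Oxgr1, named because it was the one gene that rose, went from 1.93 ± 0.377 to 5.25 ± 1.78 and 15.3 ± 3.34 CPM, with an edgeR adjusted p of 0.00618 at 48 h and 1.81e-05 at day 14. Oxgr1 is known from intercalated cells of the distal nephron. Their 7 markers summed to 19.0 to 30.7 CPM in uninjured libraries. At 48 h the sum was 74.0 to 96.4, and at day 14 it was 225 to 257. The part of these cells in the Oxgr1 rise was not tested.

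Genes of the citric acid cycle and of citrate use were called lower more often than higher in both Sox9 groups. The list also holds enzymes beside the cycle, such as Me1, Pck1 and the cytosolic Idh1. Its summed CPM ran from 10417 to 11542 in uninjured libraries and from 8408 to 15881 at 48 h, so these groups overlapped. At day 14 it ran from 4479 to 5423. Of 28 genes tested, 14 were called lower and 2 higher at 48 h, and 25 lower and 0 higher at day 14, with median log2 changes of -0.37 and -0.91. Between day 14 and 48 h 20 were lower and 2 higher, and 13 were lower without day 14 replicate 1. With library totals in place of TMM 16 were lower and 3 higher at day 14, and 8 lower and 6 higher between day 14 and 48 h. Idh1, the cytosolic enzyme that makes alpha-ketoglutarate, had the late course of Slc13a3, with 727 ± 46.7, 770 ± 105 and 251 ± 8.36 CPM (SD, n = 3), a log2 change of 0.08 ± 0.13 at 48 h (edgeR adjusted p = 0.672) and -1.53 ± 0.13 at day 14 (edgeR adjusted p = 3.66e-06). Pcx, which feeds oxaloacetate into the cycle, fell by 1.22 ± 0.20 at 48 h (edgeR adjusted p = 0.00117) and dropped by 2.53 ± 0.21 at day 14 (edgeR adjusted p = 2.89e-06). The malic enzyme Me1 had log2 changes of -0.70 ± 0.13 and -2.18 ± 0.14, with edgeR adjusted p of 0.00294 and 4.83e-07. The 2 genes higher at 48 h, named for that reason, were Idh3a (log2 change 0.40 ± 0.11) and the gluconeogenic enzyme Pck1 (1.84 ± 0.58), with edgeR adjusted p of 0.0161 and 0.0431. Pck1 reversed at day 14, when it fell by 2.61 ± 0.59 against uninjured (edgeR adjusted p = 0.00680). The count of 2 higher at 48 h became 0 or 1 when a library was left out, for each library but 48 h replicate 1, and that of 2 between day 14 and 48 h likewise for each but 48 h replicate 2. Both also became 0 or 1 with no filter on low counts, with the replicate block and with only the groups compared in the fit.

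Slc13a3 also carries N-acetylaspartate and glutarate, and all 9 tested genes of a list of 12 drawn around their metabolism fell at day 14. The list is broad: of the tested genes, Nat8, Acy1 and Acy3 are known mainly for other substrates. Nat8l, Naalad2 and Naaladl1 had too few reads to be tested. At 48 h 6 were called lower and 0 higher, and between day 14 and 48 h 8 were lower and 0 higher, with median log2 changes of -1.08, -2.66 and -1.24 in the order 48 h, day 14 and day 14 against 48 h. The 8 lower between day 14 and 48 h were 5 when libraries were scaled by their totals. Aspa, which splits N-acetylaspartate, went from 97.4 ± 13.4 to 54.9 ± 26.9 and 11.5 ± 1.57 CPM (SD, n = 3) and fell by 3.09 ± 0.30 at day 14 (edgeR adjusted p = 2.42e-05). Its change at 48 h was -0.82 ± 0.28 (edgeR adjusted p = 0.0530). Gcdh, the glutaryl-CoA dehydrogenase, had log2 changes of -1.21 ± 0.15 and -2.45 ± 0.15, with edgeR adjusted p of 1.74e-04 and 4.11e-07. Sugct, which also acts on glutarate, had log2 changes of -1.45 ± 0.12 and -2.63 ± 0.13, with edgeR adjusted p of 1.44e-05 and 8.85e-08. Aass, an enzyme of lysine breakdown upstream of them, had log2 changes of -0.85 ± 0.22 and -2.93 ± 0.24, with edgeR adjusted p of 0.0149 and 2.95e-06.

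On the sulfate side, genes of cysteine and sulfide metabolism were called lower more often than higher, and genes that use sulfate went both ways. Besides genes that lead to sulfate, the first list holds Cbs and Cth of cysteine synthesis, Csad of taurine synthesis, and Gclc and Gclm of glutathione synthesis. Of its 13 genes 7 were called lower and 1 higher at 48 h, 10 lower and 1 higher at day 14, and 8 lower and 1 higher between them. The median log2 changes were -0.58, -1.51 and -0.72. Cbs, the entry of homocysteine into cysteine synthesis, went from 226 ± 16.6 to 35.1 ± 28.5 and 29.2 ± 4.68 CPM (SD, n = 3). Cbs fell by 2.67 ± 0.51 at 48 h (edgeR adjusted p = 0.00615). Cth, the next enzyme, had log2 changes of -0.68 ± 0.16 and -2.204 ± 0.17, with edgeR adjusted p of 0.00996 and 1.80e-06. The mitochondrial sulfide enzymes Sqor and Ethe1 had log2 changes of -1.62 ± 0.15 and -2.12 ± 0.19 at day 14, with edgeR adjusted p of 5.89e-06 and 4.72e-06. The gene that rose was Cdo1, cysteine dioxygenase, named for that reason. Its level was 26.8 ± 6.04, 46.2 ± 12.4 and 90.0 ± 15.9 CPM, and it rose by 0.78 ± 0.23 and 1.75 ± 0.23 (edgeR adjusted p = 0.0284 and 1.40e-04). The call at 48 h was lost without uninjured replicate 2 or 3 or 48 h replicate 1, with no filter on low counts and in limma voom. With library totals in place of TMM the list had 3 higher at day 14 and 5 lower between day 14 and 48 h.

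Of 25 genes of sulfate activation and sulfotransferases 23 were tested. At 48 h 4 were called lower and 2 higher, at day 14 5 lower and 6 higher, and between them 3 lower and 6 higher, with median log2 changes of -0.12, 0.17 and 0.35. The 6 higher at day 14 became 3 without day 14 replicate 1. With library totals in place of TMM 12 were higher and 5 lower at day 14, and 12 higher and 3 lower between day 14 and 48 h, where 3 were higher with only those groups in the fit. The 2 higher at 48 h became 0 without uninjured replicate 1, and 1 without uninjured replicate 2, 48 h replicate 3 or day 14 replicate 1 or 3. Papss2, which makes the activated sulfate donor, fell in both Sox9 groups. Its uninjured libraries held 457, 539 and 365 CPM, the 48 h libraries 181, 130.2 and 130.4, and the day 14 libraries 60.2, 67.2 and 70.9, with no overlap between any groups. Papss2 fell by 1.62 ± 0.18 at 48 h (edgeR adjusted p = 7.48e-05) and dropped by 2.78 ± 0.18 at day 14 (edgeR adjusted p = 5.67e-07). Bpnt1, which clears the by-product of sulfation, had log2 changes of -0.80 ± 0.16 and -1.11 ± 0.16, with edgeR adjusted p of 0.00371 and 1.83e-04. The sulfotransferase Sult1a1 rose by 1.94 ± 0.52 and 2.98 ± 0.52, with edgeR adjusted p of 0.0164 and 7.25e-04, from a level of 0.731 CPM in uninjured cells. Sult4a1 was at 4.16 CPM at day 14 and at 0.0145 in uninjured cells, and was listed with 0 counts at 48 h.

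**Figure D5:**
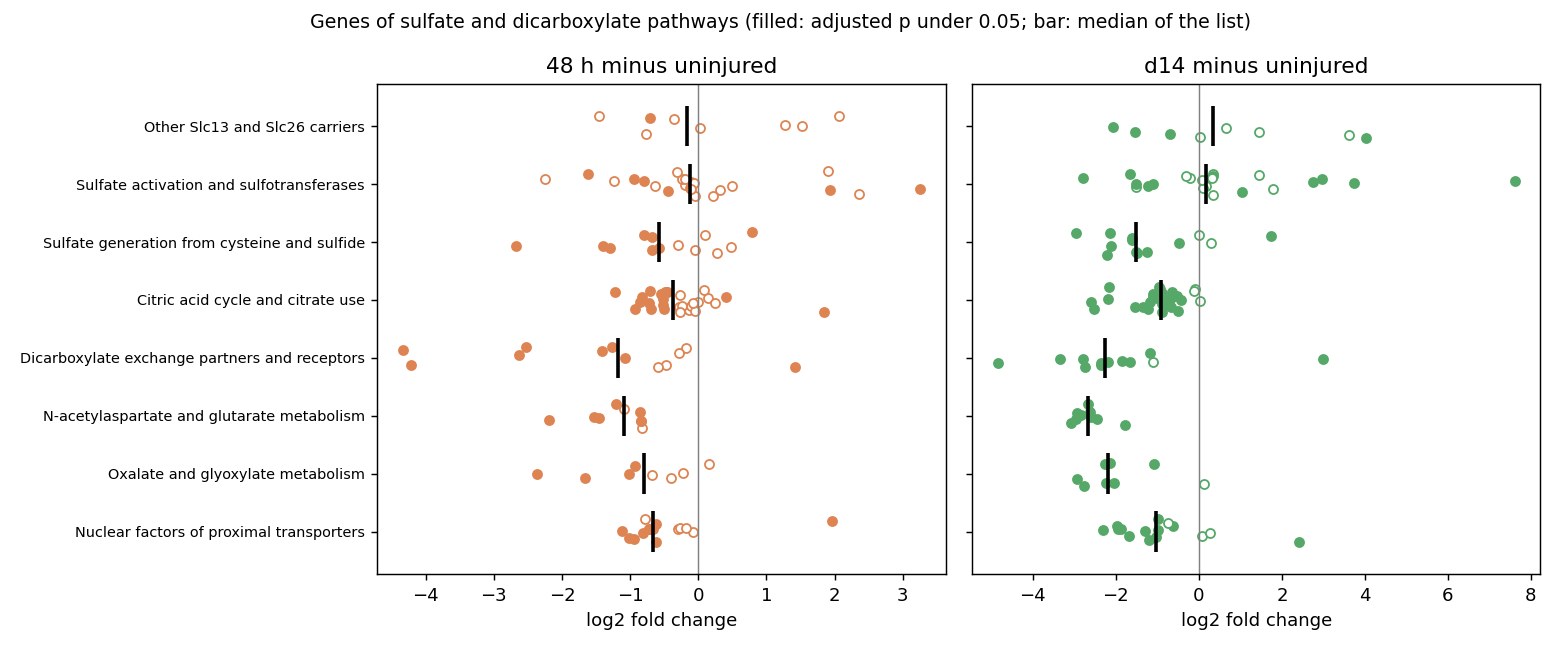
Log2 fold change (horizontal axis) of each tested gene in 8 lists around the carriers, at 48 h (left) and day 14 (right) against uninjured; filled points have an edgeR adjusted p under 0.05 and black bars are list medians. The medians at day 14 run from -2.66 for N-acetylaspartate and glutarate metabolism to 0.34 for the other Slc13 and Slc26 carriers.

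Oxalate, which Slc26a1 exchanges for sulfate, comes from glyoxylate, and 8 of 10 genes of that metabolism were tested. At 48 h 4 were called lower and 0 higher, at day 14 7 lower and 0 higher, and between them 6 lower and 1 higher, with median log2 changes of -0.80, -2.19 and -1.25. The 1 higher was Ldhb, named for that reason, and its call was lost when a library was left out, for each library but day 14 replicate 1, and under other settings such as DESeq2 size factors. Hao2, a hydroxyacid oxidase, went from 419 ± 89.6 to 80.9 ± 26.0 and 89.0 ± 47.3 CPM (SD, n = 3), so that like Slc26a1 its Sox9 groups overlapped. Grhpr, which turns glyoxylate into glycolate, was at 199 CPM in uninjured cells, with a log2 change of -0.40 ± 0.16 at 48 h (edgeR adjusted p = 0.0874) and -2.14 ± 0.17 at day 14 (edgeR adjusted p = 2.20e-06). Agxt2 had log2 changes of -1.66 ± 0.23 and -2.94 ± 0.24, with edgeR adjusted p of 4.05e-04 and 3.27e-06.

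The rest of both carrier families gave 8 tested genes of 11. At 48 h 1 was called lower and 0 higher, at day 14 3 lower and 1 higher, and between them 1 lower and 1 higher, with median log2 changes of -0.17, 0.34 and 0.20. Slc13a5, a citrate carrier of the plasma membrane best known from liver, was at 1.73 ± 0.0818, 0.638 ± 0.419 and 0.411 ± 0.125 CPM, and fell by 2.07 ± 0.73 at day 14 (edgeR adjusted p = 0.0374). The luminal anion and oxalate exchanger Slc26a6 had the late course, at 9.13, 9.22 and 3.11 CPM, with a log2 change of 0.02 ± 0.28 at 48 h (edgeR adjusted p = 0.962) and -1.55 ± 0.29 at day 14 (edgeR adjusted p = 0.00102). Slc26a11 fell by 0.70 ± 0.22 at 48 h and dropped by 0.68 ± 0.22 at day 14, with edgeR adjusted p of 0.0366 and 0.0252. The call of Slc26a11 at 48 h, the only one there, was lost when a library was left out, for each library but uninjured replicate 2 and 48 h replicate 1. Slc26a7, an exchanger of intercalated cells, rose by 4.03 ± 1.14 at day 14 (edgeR adjusted p = 0.0131), to 1.02 CPM, and its call was lost without day 14 replicate 1. The 1 higher between day 14 and 48 h was Slc26a4, also of intercalated cells, and its call was lost without 48 h replicate 3 or day 14 replicate 1. The 3 lower at day 14 became 1 without uninjured replicate 2 or 3 or any day 14 replicate. Scaling by library totals gave 1 lower and 4 higher at day 14, so the list has no direction that holds under both scalings.

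Among nuclear factors that act on proximal tubule genes, too, more were called lower than higher against uninjured cells. Of 15 listed, 9 were called lower and 1 higher at 48 h, 11 lower and 1 higher at day 14 (2 higher without day 14 replicate 1), and 8 lower and 2 higher between them (1 higher without day 14 replicate 2 or 3, or with only the groups compared in the fit), with median log2 changes of -0.66, -1.03 and -0.66. With library totals in place of TMM the day 14 counts were 10 lower and 3 higher against uninjured, and against 48 h they turned to 3 lower and 4 higher. Hnf4a, a master regulator of proximal tubule maturation, held 959, 1045 and 1031 CPM in uninjured libraries, while the 48 h ones held 727, 618 and 577 and those of day 14 270, 253 and 262. Its 3 groups did not overlap, and it fell by 0.66 ± 0.12 (edgeR adjusted p = 0.00238) and dropped by 1.95 ± 0.13 at day 14 (edgeR adjusted p = 5.10e-07). Maf had log2 changes of -1.12 ± 0.20 and -1.97 ± 0.20, with edgeR adjusted p of 0.00164 and 1.33e-05. At 48 h the log2 changes of Slc13a1, Slc13a2, Slc13a3, Slc13a4 and Slc26a1 were 0.19, -0.23, 0.16, 0.17 and -1.64. A link between Hnf4a and the carriers was not tested.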

How the data were processed

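The 9 libraries of sorted cells were analysed from one gene table. The authors deposited expected counts per gene, already whole numbers and not scaled. Per the submitters' processing notes, tools in use were STAR 2.6.1, RSEM 1.2.28, R 3.6.3, DESeq2 1.26.0 and bcl2fastq 2.20, without roles, with the mouse build mm10. Of the annotation, no release was given in the sources. Coordinates are from GENCODE (GRCm38) and start sites from RefSeq. Spike-in sequences (92, all at 0 counts) were left out.

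Genes were kept by filterByExpr (minimum count 10, minimum total 15), scaled by TMM and tested with the quasi-likelihood F-test of edgeR 4.0.16 (R 4.3.3) on all 9 libraries with a mean per group. Adjusted p-values are Benjamini-Hochberg over 15519 genes, called under 0.05. SE is the log2 change over the square root of F. The script was tested on data simulated with changes at day 14 against uninjured. It called 2 of 61 changes of 1.5-fold, 21 of 68 of 2-fold and 50 of 67 of 4-fold. A change that was not called may thus be present. Alternatives used DESeq2 1.42.0, limma 3.58.1, other scalings and filters, a replicate block, and each library left out. Counting floors cover counting error only.

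The members and gene lists were chosen with earlier results of these data known. Named genes are the members, the 3 nearest genes of each, up to 4 called genes of smallest p per list and comparison, and others where the text says why.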

Additional observations from a re-analysis of the deposited data

Results flagged for a closer look

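Differences between the effects at day 14 and at 48 h, each against the same uninjured libraries, were found for 3 carriers by testing day 14 directly against 48 h. For Slc13a3, the basolateral dicarboxylate carrier, the log2 difference was -2.74 (edgeR adjusted p = 7.09e-06). For Slc13a4, the scarce sulfate carrier, it was -2.08 (edgeR adjusted p = 0.00546), and for Slc13a2, the luminal citrate carrier, -1.79 (edgeR adjusted p = 0.00226). In each case all 3 day 14 libraries were below all 3 of 48 h. The tamoxifen schedule and the collection time differ together in this comparison and cannot be told apart.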

How the results depend on the processing

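Each carrier was refitted under 19 alternatives per comparison. The day 14 falls of Slc13a2, Slc13a3 and Slc13a4 against both groups, and of Slc26a1 against uninjured, kept their call in all 19, with the weakest edgeR, DESeq2 or limma adjusted p at 0.0316 (Slc26a1). Slc26a1 at 48 h lost its call with no filter (-1.66), with the replicate block (-1.80) and with only the 2 groups compared (-1.64), and leaving out libraries gave -2.38 to -1.24. Slc13a1 at day 14 against uninjured passed with only those 2 groups (-0.74), and leaving out libraries gave -0.90 to -0.58. It was -0.11 with library totals in place of TMM. Against 48 h it passed with DESeq2 (-0.91), and leaving out libraries gave -1.19 to -0.30. Slc26a1 against 48 h ranged from -1.16 to -0.022 and passed without 48 h replicate 2 (-1.16). Changes at 48 h that were not called turned sign without 48 h replicate 3 for Slc13a1 (leaving out libraries gave -0.40 to 0.48), Slc13a3 (-0.0027 to 0.26) and Slc13a4 (-0.24 to 0.42), and without uninjured replicate 2 for Slc13a4 (-0.0021). Library totals moved the median of all genes by 0.57 at day 14 against either group, and called 7746 genes between day 14 and 48 h in place of 5137. Same-numbered replicates did not deviate together (correlations of -0.13 to 0.02 across genes), which cannot show whether they shared a batch. No label pairs them, and apart from Slc26a1 at 48 h the replicate block changed no carrier's call. Causes were not tested. Precision is limited by the 19 to 222 counts of Slc13a4 and by the spread of Slc26a1 at 48 h (SE 0.49 to 0.51, the widest of the carriers). For each gene the groups share an estimate of the spread, so spread at 48 h also enters the tests of day 14 against uninjured.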
